A study of Equus caballus with 68 samples.

Results

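Cholesterol and fatty acids are built from acetyl-CoA by 2 enzyme chains whose genes are switched on together by the SREBP transcription factors. The 36 genes described here are the enzymes of these chains, SREBF1 and SREBF2 with their regulators, and 4 genes of sterol transport and uptake. They were chosen by name, as the entries of the deposited horse expression table that carry 1 of these 36 symbols. The list was drawn up with earlier results of these data known, so the choice was not blind to them. All 36 were found among the 30371 entries of that table. All 36 also passed the filter on low values. By role they are 8 genes of the mevalonate pathway, 12 genes from squalene to cholesterol, 5 genes of SREBP regulation, 4 genes of sterol transport and uptake, and 7 genes of fatty-acid synthesis and desaturation.

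In the mevalonate pathway, acetyl-CoA is condensed, reduced to mevalonate, phosphorylated and decarboxylated to isoprene units, and these are joined to farnesyl and geranylgeranyl pyrophosphate. The isoprenoids anchor small GTPases in membranes, and farnesyl pyrophosphate is also the source of squalene, which is closed into lanosterol and trimmed stepwise to cholesterol. When sterol in the endoplasmic reticulum is low, SCAP carries the SREBP precursors to the Golgi for cleavage, and the released fragments switch on the genes of both chains. When sterol is high, INSIG proteins hold SCAP back. In macrophages, these genes set how much lipid is made rather than taken up, and isoprenoid supply bears on motility and inflammatory signalling.

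The cells were bone marrow mononuclear cells (BMNC) of 8 Thoroughbred horses, 6 geldings and 2 mares aged 3 to 9 years (median 5), which carried no genetic change. The BMNC of each horse were kept apart and grown in undiluted synovial fluid of the same horse, either from healthy middle carpal joints (SF) or from radiocarpal joints inflamed with lipopolysaccharide (ISF). The fluids therefore came from different joints of 1 animal, and both were made cell-free and added again every 48 hours. RNA from 1 well per horse, fluid and time was sequenced. There were 8 libraries of uncultured BMNC (0 hours), and 7 per fluid from 48 hours, 8 from 96 hours, 8 from 6 days and 7 from 10 days. No library of Moon at 48 hours and none of Flash at 10 days is analysed here. A difference between the fluids and a difference between the joints cannot be told apart.

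Levels are in GeTMM, a unit that corrects reads for gene length and for the size and make-up of each library, so that genes can also be compared with each other. The libraries held 15.7 M to 35.97 M reads on genes, recovered from the values themselves, and 1 read on a gene of 1 kilobase was worth 0.0338 to 0.0979 GeTMM. A difference is given on the log2(GeTMM + 1) scale with its standard error, from 1 limma fit over 14570 genes, and a gene was called at an FDR under 0.05. The SF library of Moon at 6 days stood apart, with values summing to 2.32 M GeTMM against 0.818 M to 1.46 M in the other 67 libraries, and calls between the fluids are therefore also given without it. The SF library of Lurie at 10 days held 4038 GeTMM of 5 stromal markers, against a median of 27.6 in its group. The ISF libraries labelled Dealings and Dreamer at 96 hours each lay closest to the other of these 2 horses, while the other 66 of 68 libraries lay closest to their own label.

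Most of the 36 genes rose in the first 48 hours of culture, in either fluid, with the sterol enzymes in front. In ISF, 24 of the 36 genes rose from 0 to 48 hours and 2 fell, where 25.3% of all genes tested rose and 27.4% fell. In SF, 22 rose and 1 fell, against 22.3% and 23.1% of all genes. The median change of the 36 genes was +0.94 in ISF and +0.67 in SF, and that of all genes tested was -0.03 and -0.01. The levels at 0 and 48 hours did not overlap for 21 of the genes in ISF (20 higher, 1 lower) and 14 in SF (all higher), where 14.7% of all genes lay apart upward and 12.6% downward in ISF, and 12.2% and 9.3% in SF. Both comparisons use the same 8 libraries at 0 hours, so they are not independent of each other. From the same data, the study had already reported cholesterol synthesis and the mevalonate pathway among the most activated pathways from 0 to 48 hours. It did so for both fluids, and the genes were chosen with earlier results known. The rise of the sterol enzymes is therefore not an independent finding. The heatmap of all 36 genes shows the rise at 48 hours in 18 of the 20 sterol enzymes in ISF and 17 in SF, with little change in most fatty-acid genes.

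**Figure D1:**
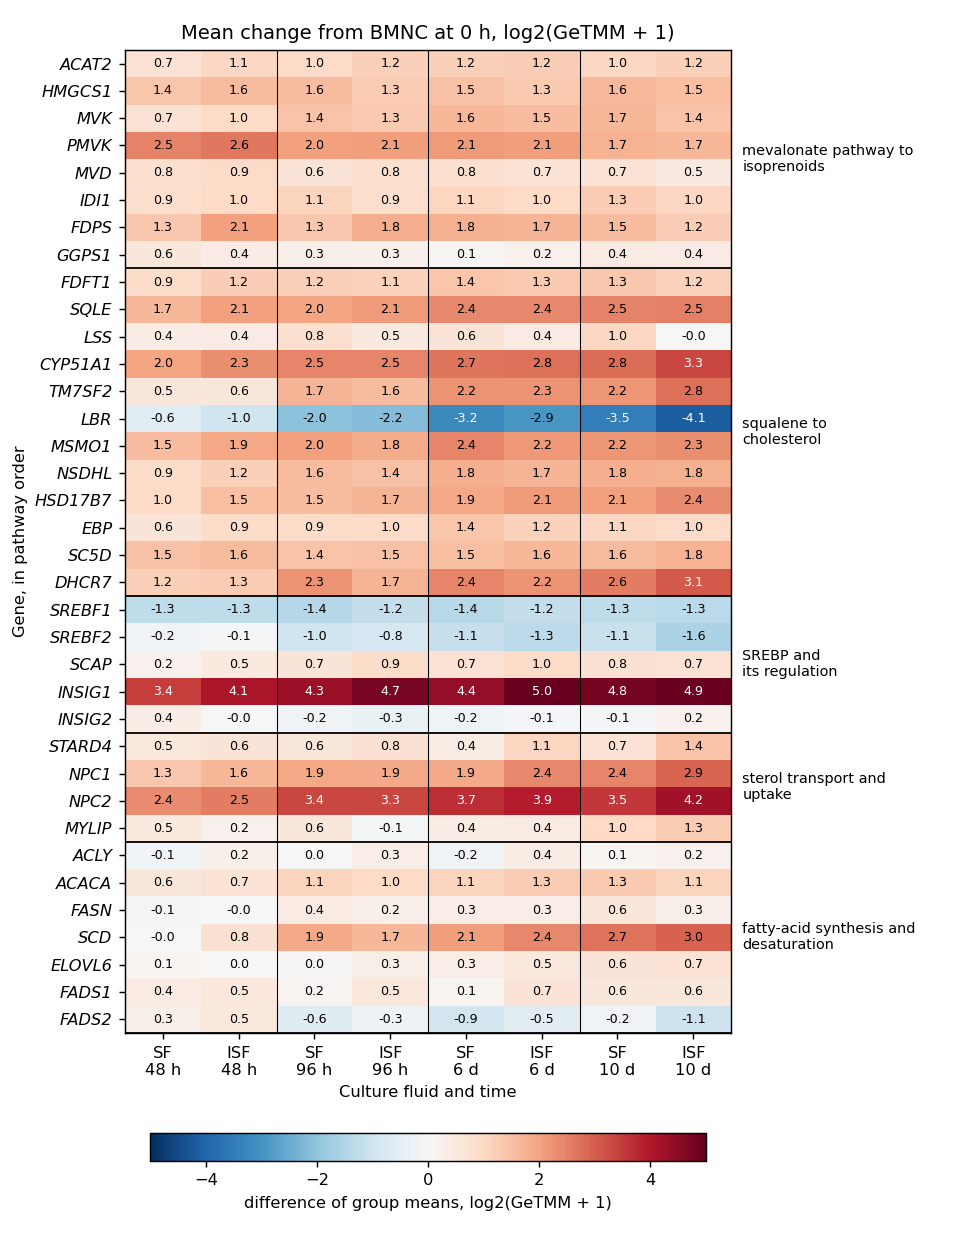
Difference of the group mean from BMNC at 0 hours, on the log2(GeTMM + 1) scale, for the 36 genes (rows, in pathway order) in SF and ISF at 4 times (columns); red is higher and blue is lower, and horizontal lines part the roles. INSIG1 and NPC2 are the deepest red rows, LBR turns steadily bluer with time, and SREBF1 and SREBF2 are blue among targets that are red.

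Markers of several cell types moved over the same interval. The summed level of 7 macrophage markers went from 184 to 308 GeTMM at 0 hours to 7548 to 13820 in SF and 14800 to 27360 in ISF at 48 hours. Neutrophil precursor markers (6 genes) went from 11360 to 21000 GeTMM down to 819 to 4329 in SF and 1087 to 6083 in ISF, and erythroid markers (4 genes) from 76.2 to 1230 down to 0.796 to 27.0 and 0.911 to 11.8. None of these markers was at 0 in every library of a group at 48 hours, and ALAS2 alone reached 0 in every library, in ISF at 10 days. In RNA from a whole well, fewer cells of a type and less RNA per cell cannot be told apart, and the part of this shift in the changes below was not tested.

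All 8 genes of the mevalonate pathway rose from 0 to 48 hours in both fluids. PMVK, the second kinase of the pathway, rose most. It measured 15.5 to 20.9 (median 19.1) GeTMM at 0 hours, 65.5 to 218 (median 96.5) in SF and 91.5 to 165 (median 118) in ISF at 48 hours, a change of +2.49 ± 0.18 (FDR = 8.8e-19) and +2.62 ± 0.18 (FDR = 6.94e-20). No cultured library at 48 hours reached down to the 0 hour levels. PMVK then fell back: at 10 days it stood at 52.2 to 82.9 (median 66.2) in SF and 51.6 to 76.9 (median 63.1) in ISF, -0.74 ± 0.18 (FDR = 0.000564) and -0.94 ± 0.18 (FDR = 1.51e-05) against 48 hours, still above every 0 hour library.

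FDPS, which makes farnesyl pyrophosphate, measured 9.77 to 22.2 (median 14.7) GeTMM at 0 hours. At 48 hours it reached 20.4 to 58.1 (median 43.7) in SF and 50.95 to 147 (median 56.8) in ISF, where every library was above every 0 hour library, a rise of +1.34 ± 0.30 (FDR = 0.000138) and +2.06 ± 0.30 (FDR = 2.3e-08). The highest ISF value was that of RimRun, 147 GeTMM, with 52.3 in the SF well of the same horse. Levels in SF then stayed within 17.2 to 100.1 GeTMM through 6 days. In ISF, FDPS fell from 48 hours to 10 days by 0.84 ± 0.31 (FDR = 0.0164) to 23.1 to 63.5 (median 30.4), and in SF it changed by +0.20 ± 0.31 (FDR = 0.599).

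HMGCS1, the synthase that condenses acetyl-CoA with acetoacetyl-CoA, went from 8.35 to 15.7 (median 11.3) GeTMM to 18.8 to 44.4 (median 30.9) in SF and 25.04 to 65.2 (median 29.8) in ISF at 48 hours. This was a rise of +1.37 ± 0.33 (FDR = 0.000546) and +1.58 ± 0.33 (FDR = 5.85e-05), with no overlap with 0 hours. At 96 hours and 6 days the SF libraries spread widely, over 13.9 to 75.4 (median 36.9) and 5.38 to 103 (median 33.4), the lowest being the Moon library of 6 days, and the ISF libraries less, over 18.5 to 45.2 (median 26.5) and 17.2 to 43.7 (median 29.2). At 10 days it measured 23.4 to 62.9 (median 33.6) in SF and 16.6 to 52.2 (median 34.4) in ISF. ACAT2, the cytosolic thiolase of the first step, rose from 19.2 to 25.8 (median 22.2) to 29.8 to 46.1 (median 39.1) in SF and 41.2 to 65.04 (median 46.4) in ISF, by +0.73 ± 0.14 (FDR = 1.17e-05) and +1.05 ± 0.14 (FDR = 1.96e-09). It then held a narrow range, with medians of 45.4, 52.3 and 49.3 in SF and 54.98, 52.7 and 53.5 in ISF.

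MVK, the kinase of mevalonate, was low at 0 hours, 2.46 to 7.77 (median 7.26) GeTMM, and rose to 5.35 to 15.3 (median 12.2) in SF and 9.30 to 22.3 (median 13.6) in ISF, by +0.72 ± 0.21 (FDR = 0.00405) and +0.98 ± 0.21 (FDR = 8.09e-05). Unlike PMVK, its level went on upward in SF, by +0.70 ± 0.21 (FDR = 0.00918) from 48 to 96 hours, to 17.97 to 26.5 (median 22.3) at 10 days, above every SF library at 48 hours. In ISF the medians were 17.4, 19.96 and 18.9 at the later times, and the change from 48 hours to 10 days was +0.45 ± 0.22 (FDR = 0.0765). The decarboxylase MVD, the isomerase IDI1 and GGPS1, which makes geranylgeranyl pyrophosphate, rose less at 48 hours: by +0.79 ± 0.18, +0.88 ± 0.27 and +0.58 ± 0.17 in SF and +0.95 ± 0.18, +0.98 ± 0.27 and +0.41 ± 0.17 in ISF. Of these, MVD fell again in ISF from 48 hours to 10 days, -0.48 ± 0.19 (FDR = 0.0262), and IDI1 and GGPS1 were not called over that span in either fluid.

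From squalene to cholesterol, 10 of 12 genes rose and LBR fell from 0 to 48 hours in ISF, and 9 of 12 rose in SF. CYP51A1, the lanosterol demethylase, measured 8.76 to 18.8 (median 11.97) GeTMM at 0 hours, 35.3 to 58.8 (median 55.9) in SF and 49.5 to 128 (median 60.1) in ISF at 48 hours, changes of +1.96 ± 0.25 (FDR = 1.14e-09) and +2.34 ± 0.25 (FDR = 3.16e-12). Its level kept climbing, to 53.5 to 110.0 (median 97.0) in SF and 72.7 to 194 (median 150.0) in ISF at 10 days, +0.83 ± 0.26 (FDR = 0.00535) and +1.00 ± 0.26 (FDR = 0.000771) against 48 hours and higher in 6 of 6 horses in each fluid. SQLE, squalene epoxidase, which commits squalene to sterols, went from 4.76 to 7.44 (median 6.31) GeTMM to 16.0 to 33.7 (median 20.7) in SF and 20.4 to 86.2 (median 23.4) in ISF, +1.68 ± 0.27 (FDR = 6.68e-07) and +2.06 ± 0.27 (FDR = 2.99e-09). Both genes were above every 0 hour library in every culture.

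The plot of 8 sterol enzymes by library shows the step from 0 to 48 hours in each of them, and the later climb of DHCR7 and CYP51A1. DHCR7, the reductase of the last step to cholesterol, had medians of 17.3 GeTMM at 0 hours, 37.9, 85.2, 97.3 and 109 in SF, and 41.9, 59.1, 83.4 and 139 in ISF from 48 hours to 10 days. It rose from 48 to 96 hours in SF (+1.08 ± 0.28, FDR = 0.00224) and from 6 to 10 days in ISF (+0.82 ± 0.28, FDR = 0.0487), the latter in 7 of 7 horses but lost without Dealings, Lurie or Ollie. The demethylation and isomerisation enzymes MSMO1, NSDHL, HSD17B7, EBP and SC5D, and the squalene synthase FDFT1, all rose by 48 hours, by +0.63 to +1.52 in SF and +0.93 to +1.93 in ISF. NSDHL and HSD17B7 rose further from 48 hours to 10 days in both fluids, by +0.90 ± 0.14 and +1.05 ± 0.34 in SF and +0.59 ± 0.14 and +0.87 ± 0.34 in ISF.

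MSMO1, the sterol methyl oxidase, was the highest of the 20 enzymes by median from 96 hours on, where LBR had been above it before. It measured 30.4 to 88.8 (median 43.7) GeTMM at 0 hours, 89.6 to 198 (median 144) in SF and 101 to 551 (median 137) in ISF at 48 hours, and 145 to 307 (median 234) and 131 to 350.0 (median 263) at 10 days, where it was not called against 48 hours. NSDHL, which removes the carboxyl group that MSMO1 leaves, rose stepwise, with 14.9 to 20.6 (median 17.98) at 0 hours, 25.2 to 43.4 (median 32.8) and 29.7 to 61.99 (median 39.7) at 48 hours, and 45.4 to 80.6 (median 71.4) and 57.4 to 68.6 (median 62.5) at 10 days, so that no 10 day library in SF lay below a 48 hour library. HSD17B7, the ketosteroid reductase that follows, was low throughout, at 0.613 to 2.78 (median 0.971) at 0 hours and 5.43 to 12.8 (median 7.77) and 2.42 to 17.7 (median 11.4) at 10 days. SC5D, the desaturase before DHCR7, went from 9.02 to 13.1 (median 11.7) to 27.4 to 43.5 (median 33.6) in SF and 26.3 to 63.9 (median 30.3) in ISF at 48 hours, with medians of 30.1 to 39.97 at all later times.

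**Figure D2:**
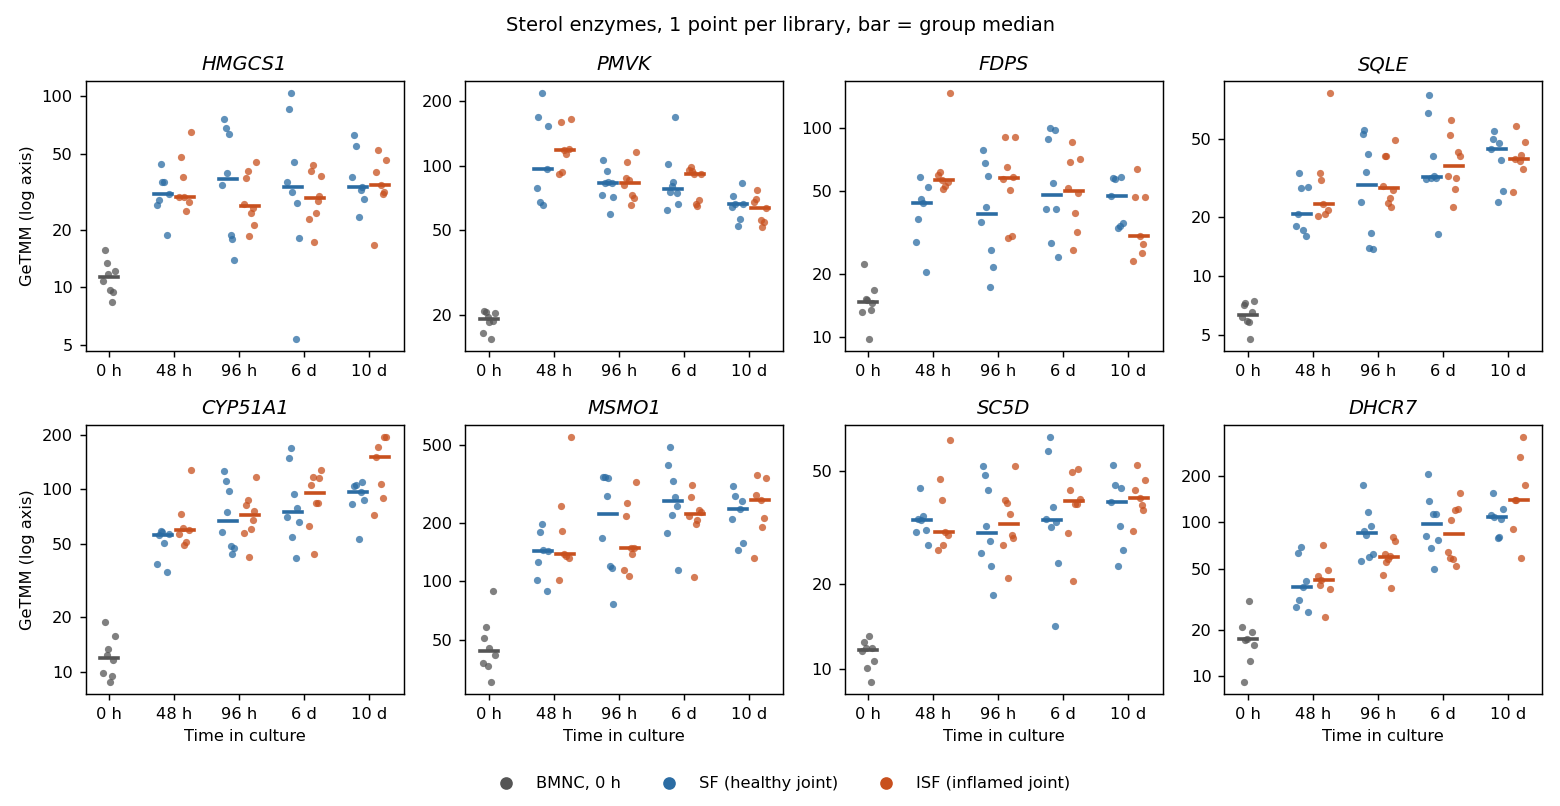
Level in GeTMM (log axis) of 8 sterol enzymes in each library against time in culture, with the group median as a bar; grey is BMNC at 0 hours, blue SF and orange ISF. Every gene steps up between 0 and 48 hours, PMVK declines afterwards, and the SF points of HMGCS1 and FDPS spread more than the ISF points at 96 hours and 6 days.

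LBR and TM7SF2 encode reductases for the same sterol double bond, and LBR is also the lamin B receptor of the nuclear envelope. The 2 genes moved in opposite directions. LBR was the highest of the 36 genes at 0 hours, at 357 to 495 (median 426) GeTMM, and measured 222 to 370.5 (median 295) in SF and 134 to 282 (median 245) in ISF at 48 hours and 51.2 to 144 (median 109.7) and 61.6 to 143 (median 94.2) at 96 hours. At 10 days 20.9 to 91.3 (median 37.96) GeTMM remained in SF and 14.3 to 46.8 (median 20.7) in ISF. From 48 hours to 10 days it fell by 2.89 ± 0.38 in SF (FDR = 3.27e-09) and by 3.14 ± 0.38 in ISF (FDR = 2.27e-10), in 6 of 6 horses in each fluid. TM7SF2 measured 0.927 to 2.54 (median 1.65) GeTMM at 0 hours, 1.94 to 3.78 (median 2.89) in SF and 1.85 to 4.96 (median 2.51) in ISF at 48 hours, and 8.03 to 13.8 (median 11.4) and 8.68 to 26.0 (median 16.9) at 10 days. That was a rise of +1.68 ± 0.26 (FDR = 1.62e-07) and +2.18 ± 0.26 (FDR = 1.16e-10) from 48 hours, again in 6 of 6 horses in each fluid.

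Within a library, LBR exceeded TM7SF2 by a ratio of 186 to 458 (median 249) at 0 hours. The median ratio was 91.9 in SF and 88.1 in ISF at 48 hours, and 3.38 and 1.23 at 10 days, when the lowest ISF library was at 0.552. The neutrophil precursor markers followed a like course, with a median sum of 14560 GeTMM at 0 hours, 2904 in SF and 3222 in ISF at 48 hours, and 173 and 18.2 at 10 days, and their part in the fall of LBR was not tested.

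Among the regulators, INSIG1, the sterol-responsive anchor of SCAP, rose more than any of the other 35 genes, while both SREBF genes fell. INSIG1 measured 7.05 to 24.2 (median 14.2) GeTMM at 0 hours, 116 to 339.5 (median 141) in SF and 179 to 347 (median 247) in ISF at 48 hours, a rise of +3.44 ± 0.34 (FDR = 3.12e-13) and +4.07 ± 0.34 (FDR = 3.71e-16) in 7 of 7 horses. Medians then reached 339, 384 and 475 in SF and 421, 521 and 459 in ISF, and no cultured library came down to the levels at 0 hours. INSIG2, the second anchor protein, stayed between 3.72 and 16.6 GeTMM in all 68 libraries. It rose by +0.37 ± 0.15 (FDR = 0.0382) from 0 to 48 hours in SF, fell by 0.56 ± 0.15 (FDR = 0.00296) from 48 to 96 hours, and was not called over time in ISF. The median ratio of INSIG1 to INSIG2 was 1.62 at 0 hours, 11.01 in SF and 30.3 in ISF at 48 hours, and 61.7 and 49.9 at 10 days.

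SREBF1, the factor mainly tied to fatty-acid synthesis, went from 8.80 to 35.5 (median 21.96) GeTMM to 4.60 to 11.9 (median 7.79) in SF and 5.49 to 10.6 (median 8.75) in ISF at 48 hours, lower in 7 of 7 horses in both fluids (-1.28 ± 0.26, FDR = 3.97e-05 and -1.28 ± 0.26, FDR = 3.05e-05). Its medians at the later times were 6.76 to 8.25 GeTMM. SREBF2, the factor mainly tied to sterol synthesis, was not called at 48 hours, with 56.9 to 139 (median 89.9) in SF and 64.3 to 144 (median 97.1) in ISF against 80.6 to 120.4 (median 106) at 0 hours, with changes of -0.16 ± 0.21 (FDR = 0.551) and -0.11 ± 0.21 (FDR = 0.692). It fell from 48 to 96 hours in both fluids (-0.84 ± 0.21 and -0.72 ± 0.21) and stood at 39.3 to 66.4 (median 44.8) in SF and 22.1 to 44.6 (median 31.7) in ISF at 10 days, -0.94 ± 0.21 (FDR = 0.000199) and -1.48 ± 0.21 (FDR = 3.43e-08) against 48 hours. This fall was seen in 6 of 6 horses in SF and 6 of 6 horses in ISF.

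SCAP, the escort of SREBP, went the other way from SREBF2. It measured 10.9 to 15.5 (median 14.4) GeTMM at 0 hours, 13.5 to 23.1 (median 14.7) in SF and 16.0 to 22.7 (median 19.2) in ISF at 48 hours, and reached medians of 20.9 and 26.1 at 96 hours. The rise from 0 to 48 hours was called in ISF (+0.48 ± 0.11, FDR = 0.000275) and not in SF (+0.21 ± 0.11, FDR = 0.12), and that from 48 to 96 hours in both (+0.45 ± 0.11, FDR = 0.00163 in SF and +0.43 ± 0.11, FDR = 0.00432 in ISF). At 10 days the fluids overlapped, at 21.3 to 27.9 (median 23.3) and 21.4 to 25.4 (median 23.2).

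**Figure D3:**
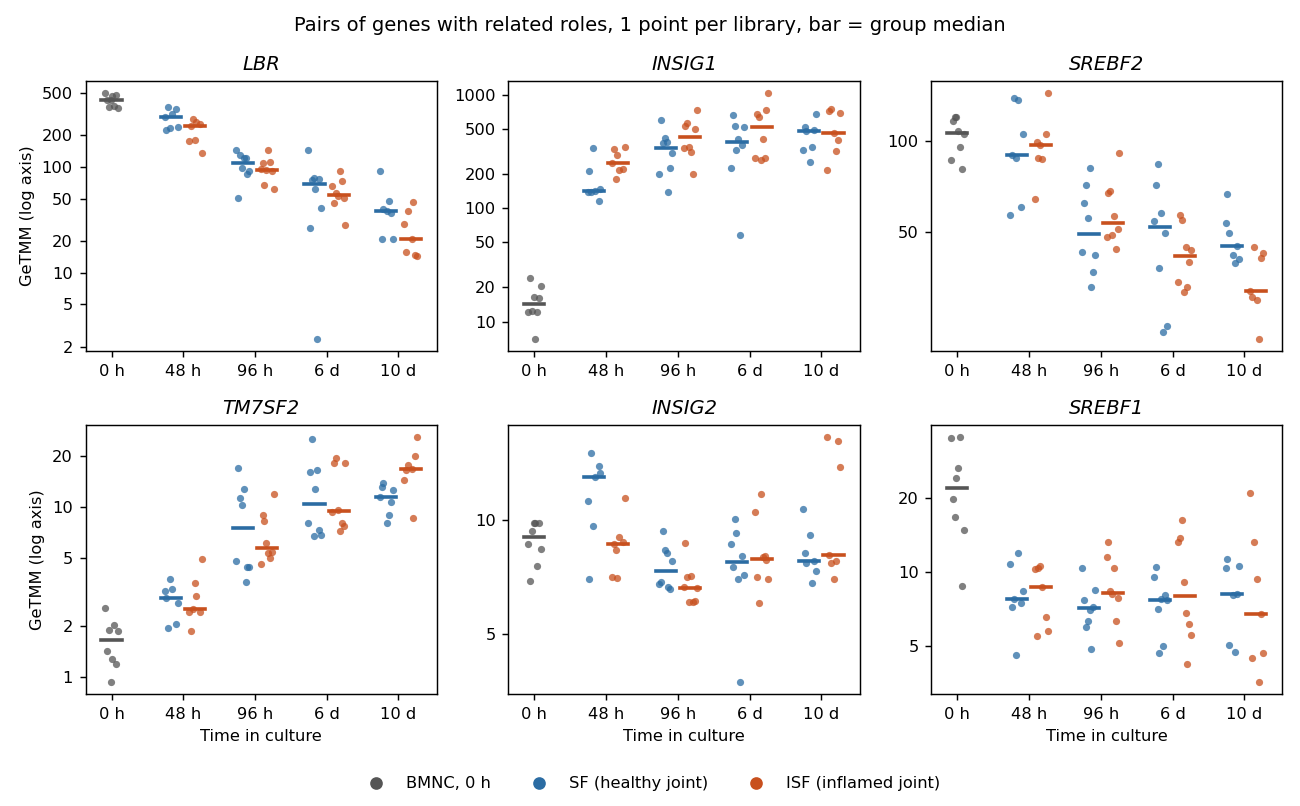
Level in GeTMM (log axis) in each library against time for LBR and TM7SF2, INSIG1 and INSIG2, and SREBF2 and SREBF1, with the group median as a bar; grey is BMNC at 0 hours, blue SF and orange ISF. LBR descends as TM7SF2 climbs, INSIG1 leaves its 0 hour level at 48 hours while INSIG2 stays near 10 GeTMM, and both SREBF genes end below where they began.

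Of the 4 genes of sterol transport and uptake, NPC2, the lysosomal protein that hands cholesterol to NPC1, was the highest of the 36 genes in every culture. It measured 264 to 419 (median 351) GeTMM at 0 hours, 1280 to 2761 (median 1780) in SF and 1629 to 2359 (median 2131) in ISF at 48 hours, a change of +2.37 ± 0.16 (FDR = 6.75e-20) and +2.55 ± 0.16 (FDR = 2.37e-21). From 48 to 96 hours it rose again in 7 of 7 horses in each fluid, by +0.98 ± 0.16 and +0.80 ± 0.16, and in ISF once more to 6 days (+0.56 ± 0.15, FDR = 0.0191). NPC1, the membrane protein that exports the cholesterol, followed, with 6.99 to 15.7 (median 11.3) GeTMM at 0 hours, 21.2 to 41.8 (median 29.9) in SF and 27.1 to 47.7 (median 36.8) in ISF at 48 hours (+1.33 ± 0.21, FDR = 3.9e-07 and +1.65 ± 0.21, FDR = 1.24e-09), and 40.6 to 75.3 (median 66.1) and 62.4 to 116 (median 88.8) at 10 days. Both were among the 15 and 12 genes that rose from 48 hours to 10 days in SF and ISF. The macrophage marker sum went the same way, from a median of 9361 GeTMM at 48 hours to 45560 at 10 days in SF and from 22150 to 64170 in ISF, and its part in their rise was not tested.

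STARD4, a cytosolic sterol carrier, measured 5.70 to 9.23 (median 7.55) GeTMM at 0 hours and 6.90 to 15.5 (median 10.96) in SF and 9.86 to 15.99 (median 10.9) in ISF at 48 hours, a rise called in ISF (+0.64 ± 0.24, FDR = 0.0183) and not in SF (+0.53 ± 0.24, FDR = 0.0596). The call in ISF was lost without Catnip (FDR = 0.0624). MYLIP, a ubiquitin ligase induced by sterol-sensing nuclear receptors, varied from 5.49 to 142 GeTMM over all libraries in culture. It was not called before 10 days, and rose from 48 hours to 10 days in ISF by +1.08 ± 0.32 (FDR = 0.00392), in 6 of 6 horses.

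Of the 7 genes of fatty-acid synthesis and desaturation, ACACA alone was called from 0 to 48 hours, in both fluids, and its call in SF was lost without Flash, Lurie or Ollie (FDR = 0.0657 to 0.0792). ACACA, the acetyl-CoA carboxylase that makes malonyl-CoA, measured 2.79 to 5.95 (median 4.53) GeTMM at 0 hours, 5.97 to 8.32 (median 7.08) in SF and 5.78 to 10.3 (median 7.58) in ISF at 48 hours (+0.58 ± 0.22, FDR = 0.0248 and +0.69 ± 0.22, FDR = 0.00601), and 9.03 to 16.5 (median 12.4) and 8.44 to 13.6 (median 11.4) at 10 days. FASN, the synthase itself, had medians of 16.6 at 0 hours and 13.98 and 15.6 at 48 hours, differences of -0.09 ± 0.20 and -0.01 ± 0.20 with 95% intervals of -0.48 to +0.30 and -0.41 to +0.38. It was called once, from 48 hours to 10 days in SF (+0.67 ± 0.20, FDR = 0.00462). ACLY, which cleaves citrate to acetyl-CoA, was called in no interval of time.

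SCD, the desaturase that makes oleate, was late. It measured 1.30 to 4.77 (median 3.62) GeTMM at 0 hours, 1.91 to 6.16 (median 2.71) in SF and 2.88 to 10.4 (median 6.77) in ISF at 48 hours, and 7.01 to 36.4 (median 13.7) and 6.26 to 20.7 (median 11.2) at 96 hours. At 10 days it reached 17.4 to 35.5 (median 25.6) and 13.7 to 84.4 (median 21.8), above every library at 48 hours in the same fluid, a rise of +2.73 ± 0.38 (FDR = 1.37e-08) in SF and +2.19 ± 0.38 (FDR = 1.64e-06) in ISF. The elongase ELOVL6 stayed low, with group medians of 0.197 to 0.858 GeTMM, and its rise from 48 hours to 10 days (+0.55 ± 0.19 in SF and +0.66 ± 0.19 in ISF) rests on values near those of a few reads. FADS1 and FADS2, the desaturases of polyunsaturated fatty acids, were low too. FADS1 had medians of 1.53 to 3.42 GeTMM and was called in no comparison of the fit without a horse term, with a change of +0.41 ± 0.26 (FDR = 0.207) in SF and +0.52 ± 0.26 (FDR = 0.0893) in ISF from 0 to 48 hours, in 7 and 6 of 7 horses. FADS2 fell from 48 to 96 hours in both fluids, by -0.89 ± 0.24 (FDR = 0.00336) in SF and -0.77 ± 0.24 (FDR = 0.0175) in ISF.

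After 48 hours, calls were fewer and went both ways. From 48 to 96 hours, 3 of the 36 genes rose and 4 fell in ISF (8.54% and 10.4% of all genes tested), and 10 rose and 4 fell in SF (11.5% and 15.8%). From 96 hours to 6 days only NPC2 rose in ISF, where 2.83% of all genes rose and 3.54% fell, and none was called by limma in SF, where 0.432% rose and 1.61% fell and 4 of the 36 had an unadjusted p under 0.05. From 6 to 10 days DHCR7 rose and LBR fell in ISF (5.09% and 5.44% of all genes), and FADS2 rose in SF (3.19% rose and 1.59% fell). From 48 hours to 10 days, 12 rose and 6 fell in ISF, against 27.2% and 26.4% of all genes, and 15 rose and 4 fell in SF, against 26.7% and 24.1%. Of the 20 sterol enzymes, 5 rose and 4 fell over that span in ISF, and 7 rose and 2 fell in SF. Some of these counts moved with single libraries: with the Moon library of 6 days left out, 4 genes were called in ISF from 96 hours to 6 days, 4 from 6 to 10 days, and 0 in SF from 6 to 10 days, when leaving out the Lurie library of 10 days also left 0. The call of FADS2 in SF from 6 to 10 days was lost on leaving out Catnip, Dreamer, Flash, Lurie, Moon, Ollie or RimRun, and that of NPC2 in ISF from 96 hours to 6 days on leaving out Catnip, Dreamer or RimRun. In ISF from 6 to 10 days 0 genes were called without Dealings, Lurie or Ollie. With the Dealings and Dreamer libraries that lie closest to each other left out, 1 gene was called in ISF from 6 to 10 days. With the horse as a block, 2 genes were called in ISF and 1 in SF from 96 hours to 6 days.

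Whether the inflamed fluid altered these genes was asked at each time. Few of the 36 differed between ISF and SF. No gene was called by limma at 48 hours, when 0.872% of all genes were higher in ISF and 0.81% lower. None was called at 96 hours (6.16% and 4.3%), and 6 and 4 of the 36 had an unadjusted p under 0.05. At 48 hours the difference was above 0 for 30 of the 36 genes and 18 of the 20 sterol enzymes. Its median over the 36 was +0.16, against -0.02 for all genes tested. At 96 hours, 6 days and 10 days it was above 0 for 18, 21 and 17 of the 36. The genes share the same libraries, and this lean was not tested. At 6 days STARD4 and ACLY were higher in ISF (16.7% of all genes were higher and 13.6% lower), and at 10 days STARD4 and NPC2 were higher and FADS2 was lower (9.95% and 10.8%). None of the 20 sterol enzymes was called at any time in the fit without a horse term. For 16, 17, 19 and 15 of them, its 95% interval of the difference lay within 1 log2 unit of 0 at the 4 successive times. The widest intervals among these enzymes ran down to -1.87 and up to +1.33.

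With the horse as a block in the paired fit, 5 genes were called at 6 days, SCAP, STARD4, NPC1, ACLY and FADS1, all higher in ISF, and 6 at 10 days, when CYP51A1, STARD4 and NPC2 were higher in ISF and LSS, SREBF2 and FADS2 lower. The paired fit called 0 genes at 48 and 96 hours. At 96 hours it took the labels of the Dealings and Dreamer libraries in ISF as given, though each lay closest to the other horse. Leaving out the outlying Moon library changed the calls at every time: ACLY was then called at 48 and 96 hours (+0.38 and +0.32), LSS (lower), SCAP, NPC2 and ACLY at 6 days, and LSS and FADS2 (lower) with STARD4, NPC1 and NPC2 at 10 days.

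**Figure D4:**
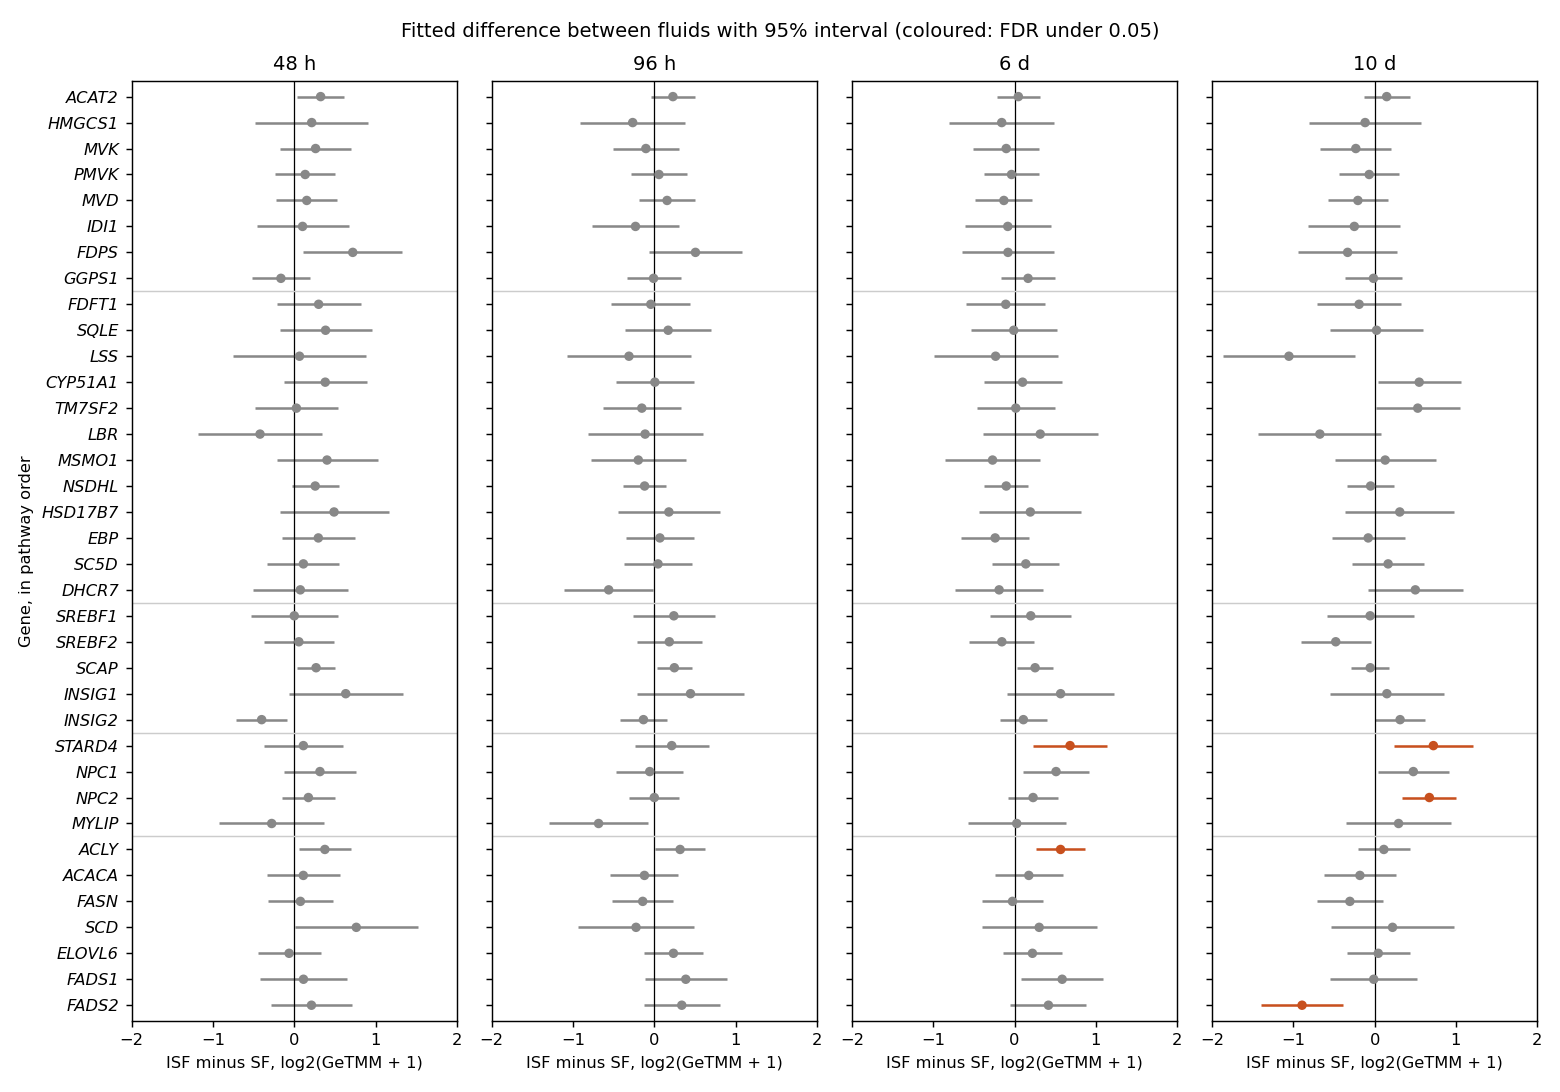
Fitted difference ISF minus SF on the log2(GeTMM + 1) scale (points) with its 95% interval (lines) for the 36 genes (rows, in pathway order) at 4 times (panels); orange marks an FDR under 0.05. Orange points are STARD4 and ACLY at 6 days and STARD4, NPC2 and FADS2 at 10 days, and the intervals of most sterol enzymes cross 0 at all 4 times.

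Marker sums of several cell types also differed between the fluids, and not only at the times with calls. At 48 hours the macrophage markers summed to 14800 to 27360 GeTMM in ISF and 7548 to 13820 in SF, with no overlap. None of the genes described here was called between the fluids at that time in the fit without a horse term. At 10 days the 7 macrophage markers summed to 47200 to 82490 GeTMM (median 64170) in ISF and 29900 to 75170 (median 45560) in SF, and overlapped. The 5 T cell markers summed to 4.33 to 14.8 (median 7.61) in ISF and 23.5 to 198.7 (median 103) in SF, with no overlap, and the 6 neutrophil precursor markers had medians of 18.2 and 173. At 6 days the medians were 58760 and 37450 for the macrophage markers, 32.4 and 129 for the T cell markers, and 192 and 1613 for the neutrophil precursor markers, all with overlap. None of these markers was at 0 in every library of a group, and the part of these sums in the calls between the fluids was not tested.

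STARD4 at 6 days measured 10.2 to 22.7 (median 17.1) GeTMM in ISF and 1.11 to 18.6 (median 12.4) in SF, a difference of +0.68 ± 0.23 (FDR = 0.0173), higher in ISF in 6 of 8 horses. The lowest SF value was that of the library of Moon that stands apart, and without it the difference was +0.35 and not called (FDR = 0.101), nor was it called without Ollie (+0.63, FDR = 0.0659) or when the 2 groups were fitted alone (FDR = 0.23). At 10 days it measured 14.4 to 28.9 (median 21.3) in ISF and 10.6 to 15.3 (median 13.1) in SF, +0.72 ± 0.24 (FDR = 0.0265), higher in 7 of 7 horses, and without the SF library of Lurie +0.68, no longer called (FDR = 0.0504). Leaving out Dreamer, Lurie, Ollie or RimRun in all groups also ended this call. ACLY at 6 days was at 74.4 to 113 (median 82.4) in ISF and 18.3 to 92.3 (median 70.5) in SF, +0.57 ± 0.15 (FDR = 0.00291), higher in 8 of 8 horses, and without the library of Moon +0.33 (FDR = 0.0103), a call lost when the 2 groups were fitted alone (FDR = 0.162). Its ISF medians were 80.2 and 83.7 at 48 and 96 hours against 64.7 and 70.2 in SF, differences of +0.38 ± 0.16 (FDR = 0.258) and +0.32 ± 0.15 (FDR = 0.183).

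NPC2 at 10 days measured 4678 to 8421 (median 5915) GeTMM in ISF and 3096 to 5032 (median 3899) in SF, +0.67 ± 0.17 (FDR = 0.00194), higher in ISF in 7 of 7 horses. FADS2 at 10 days measured 0.445 to 2.28 in ISF and 1.12 to 7.20 (median 2.88) in SF, -0.89 ± 0.25 (FDR = 0.00674), lower in ISF in 6 of 7 horses. At 6 days the same gene was higher in ISF in 7 of 8 horses, +0.42 ± 0.23 (FDR = 0.177). The highest SF value at 10 days, 7.20 GeTMM, was that of the library of Lurie that was rich in stromal markers, and without it the difference was -0.70 (FDR = 0.0369).

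LSS, lanosterol synthase, which closes the sterol ring system, is 1 of the 2 genes called in no comparison of the fit without a horse term, beside FADS1. It measured 6.95 to 22.7 (median 15.2) GeTMM at 0 hours, and at 48 hours 7.68 to 34.6 (median 21.5) in SF and 15.9 to 22.3 (median 21.9) in ISF, +0.36 ± 0.40 (FDR = 0.488) and +0.42 ± 0.40 (FDR = 0.389) against 0 hours. At 10 days it measured 8.70 to 25.3 (median 12.8) in ISF and 19.2 to 57.2 (median 33.2) in SF and was lower in ISF in 7 of 7 horses, by 1.05 ± 0.41 (FDR = 0.0564, and 0.0118 with the horse as a block). The gap was widest in Dealings, 12.8 GeTMM in ISF against 57.2 in SF, and narrowest in Lurie, 18.5 against 21.6. At 6 days LSS was lower in ISF in 6 of 8 horses, RimRun and Moon being the exceptions, and the difference was -0.23 ± 0.38 (FDR = 0.695), or -0.78 (FDR = 0.0322) without the Moon library, where LSS was at 0.750 GeTMM.

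From 96 hours on, the small mean differences of the enzymes covered larger ones within horses that ran in opposite directions. At 48 hours the mean of the 20 sterol enzymes was lower in ISF only in Flash (-0.153) and Lurie (-0.0985). In the other horses it was higher in ISF, by 0.026 (Dreamer) to 0.756 (RimRun). The mean of the 20 sterol enzymes on the log2(GeTMM + 1) scale was 3.98 to 4.32 at 0 hours. At 96 hours it spanned 4.72 to 6.05 in SF and 5.04 to 5.80 in ISF, with SDs of 0.525 and 0.281, and at 6 days 4.91 to 6.31 and 5.02 to 5.95, with SDs of 0.519 and 0.301. In RimRun the ISF mean exceeded the SF mean at all 4 times, by 0.756, 1.07, 0.793 and 0.356, with 18, 19, 18 and 14 of the 20 enzymes higher in ISF. In Lurie the 4 successive differences were -0.0985, -0.663, -0.441 and +0.409, with 6, 2, 4 and 15 enzymes higher in ISF. The last of these uses the SF library of Lurie that was rich in stromal markers. Its enzyme mean, 5.11, was the lowest of the SF libraries at 10 days, and the part of the stromal cells in it was not tested. Flash, Dealings and Dreamer were likewise lower in ISF, with differences of -0.554, -0.382 and -0.281 at 96 hours and of -0.228, -0.396 and -0.365 at 6 days. For Dealings and Dreamer, the ISF libraries at 96 hours are those that lay closest to each other's horse, so these 2 pairings are in doubt. Moon and Ollie were higher in ISF at 96 hours, by 0.258 and 0.268, and Catnip differed by -0.0028.

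HMGCS1 shows the same split in single wells. At 96 hours it measured 45.2 GeTMM in the ISF well of RimRun against 13.9 in the SF well, and in Lurie 24.5 and 63.6. FDPS in RimRun measured 90.99 in ISF and 21.5 in SF, and in Flash 29.7 and 41.7. With 1 well per horse, fluid and time, a difference between horses and a difference between wells cannot be told apart.

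**Figure D5:**
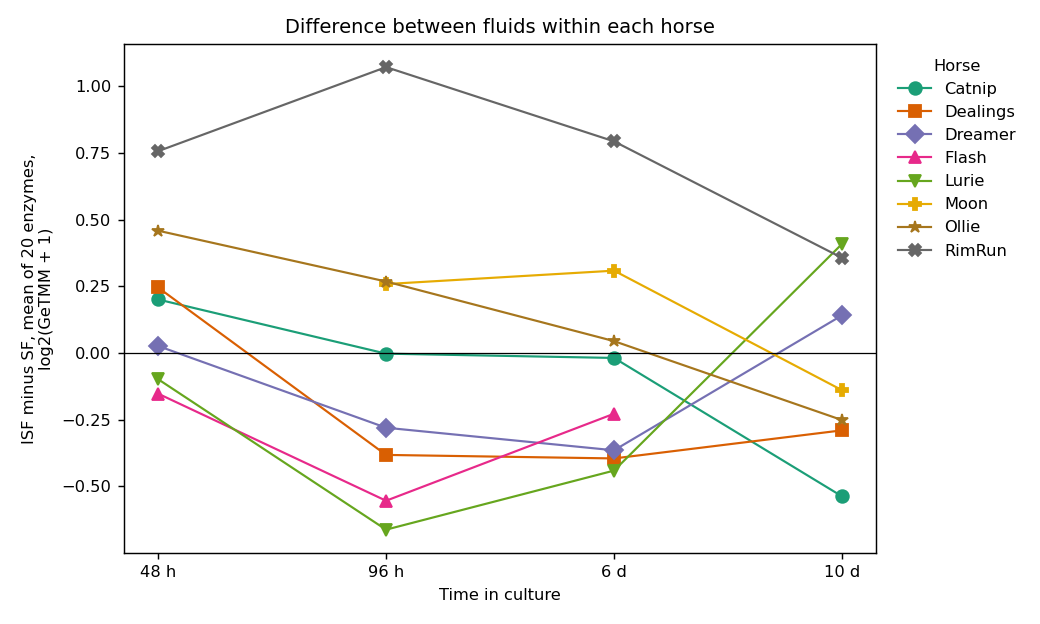
Difference ISF minus SF of the mean of 20 sterol enzymes on the log2(GeTMM + 1) scale, within each horse (1 line per horse), against time in culture. RimRun lies above 0 at all 4 times (0.756, 1.07, 0.793 and 0.356), Dealings, Dreamer, Flash and Lurie lie below 0 at 96 hours and 6 days, and the lines cross by 10 days. The point of Lurie at 10 days uses the SF library rich in stromal markers. Those of Dealings and Dreamer at 96 hours use the ISF libraries that lay closest to each other's horse.

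A change of the ISF minus SF difference over time was tested as an interaction. None of the 36 genes was called by limma for the intervals 48 to 96 hours, 96 hours to 6 days, 6 to 10 days and 48 hours to 10 days, in which 0.0206%, 0%, 0.226% and 2.99% of all genes were called, and 0, 0, 2 and 4 of the 36 had an unadjusted p under 0.05. Nearest the threshold over 48 hours to 10 days were INSIG2, with a change of the ISF minus SF difference of +0.72 ± 0.22 (FDR = 0.0556), and FADS2, with -1.10 ± 0.35 (FDR = 0.0655). With the horse as a block both were called (FDR = 0.0251 and 0.0314), and FADS2 also for 6 to 10 days, by -1.31 (FDR = 0.0283). Both were likewise called over 48 hours to 10 days with the Moon library left out (+0.72 and -1.10).

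Neighbouring pathways were followed in 4 further lists, to be read against all genes tested, of which 25.3% rose and 27.4% fell from 0 to 48 hours in ISF, 22.3% and 23.1% did so in SF, and 16.7% were higher and 13.6% lower in ISF at 6 days. Of 15 genes of isoprenoid use (prenylation, dolichol and ubiquinone), 10 rose and none fell from 0 to 48 hours in ISF, and 5 rose and none fell in SF, where the share that rose was not far from that of all genes. DHDDS, a dolichol synthase subunit, was among those that rose (+1.05 ± 0.12, FDR = 5.81e-11 in ISF and +0.87 ± 0.12, FDR = 1.92e-08 in SF). At 6 days 8 of the 15 were higher in ISF and 1 lower, with NUS1, the partner of DHDDS, at 39.1 to 69.1 (median 45.7) GeTMM in ISF and 3.89 to 34.1 (median 26.2) in SF (+1.08 ± 0.19, FDR = 7.6e-06). Of 12 genes of SREBP cleavage, export and sterol-dependent degradation, 6 rose and 2 fell from 0 to 48 hours in each fluid, and 6 were higher and 1 lower in ISF at 6 days. The COPII coat gene SEC24D, part of the vesicle that carries SCAP, was at 42.2 to 59.97 (median 49.2) in ISF and 10.9 to 34.3 (median 27.96) in SF (+0.95 ± 0.13, FDR = 6.12e-08).

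Of 14 further lipid genes linked to SREBP, 8 rose and 1 fell from 0 to 48 hours in each fluid. The fatty-acid carrier FABP5 went from 14.1 to 25.4 (median 19.5) GeTMM to 319.5 to 567 (median 429) in SF and 512 to 1072 (median 663) in ISF (+4.41 ± 0.27, FDR = 1.1e-21 and +5.14 ± 0.27, FDR = 6.49e-25). ME1, the malic enzyme that supplies NADPH, was higher in ISF at 6 days, 76.2 to 153 (median 123) against 21.7 to 60.6 (median 26.97) in SF, with no overlap (+1.96 ± 0.18, FDR = 1.37e-12), where 4 of the 14 were higher and 2 lower, shares not far from those of all genes. Of 13 genes of sterol esterification, efflux and oxysterols, 4 rose and 3 fell from 0 to 48 hours in each fluid, near the shares of all genes. LIPA, the lysosomal cholesteryl ester lipase, was among those that rose (+4.22 ± 0.28, FDR = 3.89e-20 in SF and +3.43 ± 0.28, FDR = 2.07e-16 in ISF). At 6 days 3 were higher and 2 lower in ISF, again near the shares of all genes. SOAT1, which esterifies cholesterol, was at 90.6 to 256 (median 184) in ISF and 7.22 to 96.1 (median 82.95) in SF (+1.48 ± 0.25, FDR = 6.76e-06), and LIPA was lower (-0.83 ± 0.27, FDR = 0.0158). Without the Moon library, the counts at 6 days were 7 higher and 2 lower for isoprenoid use, 4 and 2 for SREBP cleavage and export, 3 and 2 for the further lipid genes, and 3 and 2 for esterification and efflux, and NUS1, SEC24D, ME1, SOAT1 and LIPA were still called (+0.77, +0.79, +1.90, +1.07 and -1.12), a check chosen after seeing the data.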

How the data were processed

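RNA-seq of equine BMNC was deposited as 1 table of GeTMM values for 68 libraries, with Ensembl gene identifiers and symbols. Per the labels and the study's methods, the authors trimmed reads with TrimGalore 0.4.3, aligned them to EquCab3.0 with STAR 2.7.2a, counted them per Ensembl gene and deposited GeTMM, an RPKM-like value (reads per kilobase, scaled with TMM factors). The strand setting of the counting is not given in the sources used here.

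From the steps of low values, whole reads per gene were recovered (15.653 to 35.972 M per library). One library, SF of Lurie at 48 hours, needed a correction by a factor of 2. Groups were tested with limma 3.58.1 (R 4.3.3, empirical Bayes with a trend, two-sided) on log2(GeTMM + 1) with 9 group means and no horse term, over the 14570 genes that reached 0.5 GeTMM in 7 or more libraries. P-values were adjusted by Benjamini-Hochberg over all 14570 genes. Before use, the fit was tested on simulated data with 200 genes changed by 1.5 log2 units and no horse effect. The differences of the 36 genes between the fluids were smaller, and changes of such sizes were not simulated. No library pair held identical values.

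Same-named horses pair the samples, since each horse gave all its libraries. Of 30 ISF and SF pairs, 26 had correlated deviations from their group means above 0.1 (range -0.22 to 0.56, median 0.36). The block fit added the horse as a term. Other alternatives were a pseudocount of 0.1, no filter, median-of-ratios scaling, limma voom on the recovered reads with the TMM scaling of the deposited values, only the groups compared, each horse left out, and the libraries that stood apart left out.

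Values are given, though not for every group of each gene, for genes chosen by rule. These are the 2 genes per role with the largest mean change of both fluids from 0 to 48 hours. Also included are the genes called between the fluids (up to 3 per direction and time) and 5 of the genes the study names. The 5 are HMGCS1, MVK, ACAT2, FDPS and SCAP. GGPS1, which the study also names, was left out of the rule. Genes called nowhere in the fit without a horse term complete the rule. LBR, TM7SF2, SREBF2, INSIG2, SCD and DHCR7 were added after their values were seen. Levels of MSMO1, NSDHL, HSD17B7, SC5D, FASN, MYLIP and ELOVL6 are also given outside the rule. Of each other list, at most 2 called genes with the largest change are named. The members and lists were chosen with earlier results of these data known. Tables were made with Python 3.11.15.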

Additional observations from a re-analysis of the deposited data

Results flagged for a closer look

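Dixon's 95% critical value was applied to 333 sets of values (1 gene or summary in 1 group). In 30 of them a library was separated from the others by more than this value. With independent sets, chance alone would give about 1 in 20, or 16 of 333. The sets share libraries, and several flags fall on the same library, so 30 against 16 is not a test. The ISF library of RimRun at 48 hours was the highest of its group for ACAT2 (65.04 GeTMM), FDPS (147.2), FDFT1 (125.7), SQLE (86.19), CYP51A1 (127.9), EBP (88.98) and the mean of the 20 sterol enzymes (5.9653 on the log2 scale).

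The SF library of Moon at 6 days, whose values sum far above those of the others, was the lowest of its group for GGPS1 (6.965 GeTMM), LSS (0.7496), LBR (2.372), INSIG1 (57.65), INSIG2 (3.72), STARD4 (1.115), MYLIP (5.49), ACLY (18.32) and ACACA (1.705), and the highest for EBP (256.8).

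At 0 hours MVK was at 2.458 GeTMM in Ollie and FDFT1 at 38.3 in Dealings. In ISF, HSD17B7 was at 7.001 in Dealings and FADS2 at 2.412 in Lurie at 48 hours, INSIG2 at 8.668 in Dealings at 96 hours, MSMO1 at 105.1 in Flash at 6 days, and HSD17B7 at 2.418 in Catnip and FASN at 26.19 in Dreamer at 10 days. In SF, MVD was at 21.42 in Catnip and SCAP at 23.13 in Dealings at 48 hours, and MVD at 42.39 in Dealings, CYP51A1 at 53.48 in Lurie and NPC1 at 40.59 in Lurie at 10 days.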

How the results depend on the processing

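All 116 calls of the 36 genes kept their direction under the 17 alternatives, and 98 (without Ollie) to 115 (replicate block) of them were called again. Median-of-ratios scaling and voom moved the median of all genes by less than 0.1 (log2). Counts of called genes that moved by more than 1.5 times were as follows, and the cause was not tested. The paired fit (horse as a block) called 5 genes between ISF and SF at 6 days and 6 at 10 days, 2 in ISF and 1 in SF from 96 hours to 6 days, and 1 and 2 for the interactions of 6 to 10 days and 48 hours to 10 days; it changed no other count by that much. With the outlying Moon library of 6 days left out (also counted under the horse Moon), the fluids differed in 1, 1, 4 and 5 genes at the 4 successive times, and calls over time numbered 4 in ISF from 96 hours to 6 days, 4 in ISF and 0 in SF from 6 to 10 days, and 2 for the interaction of 48 hours to 10 days. Fitting only the groups compared called 1 gene between the fluids at 96 hours, 0 at 6 days and 6 at 10 days, 2 in ISF from 96 hours to 6 days and 0 in SF from 6 to 10 days; it was not run for the interactions. From 6 to 10 days, 1 gene was called in ISF with a pseudocount of 0.1, with no filter, and without the Dealings and Dreamer libraries of 96 hours, and 0 in SF with no filter, median-of-ratios scaling, voom, or without the Lurie library of 10 days, an alternative added after seeing the data. Median-of-ratios scaling called 1 gene for the interaction of 48 hours to 10 days.

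Leaving out each horse in turn gave between the fluids 0 to 1, 0 to 1, 1 to 4 and 2 to 6 genes at the successive times. In ISF the ranges were 23 to 28 from 0 to 48 hours, 5 to 8 from 48 to 96 hours, 0 to 2 from 96 hours to 6 days, 0 to 4 from 6 to 10 days and 16 to 19 from 48 hours to 10 days. In SF they were 21 to 25, 11 to 16, 0 to 1, 0 to 1 and 17 to 21 for the same intervals, and for the interactions 0 to 0, 0 to 0, 0 to 1 and 0 to 2. ELOVL6, FADS1 and FADS2 lie at a few GeTMM or less, where few reads limit the precision.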

Other observations

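Per kilobase, of the 36 genes at 0 hours LBR (median 425.9 GeTMM), NPC2 (351.2) and SREBF2 (106.4) stood highest, and at 10 days in ISF the highest were NPC2 (5915), INSIG1 (458.9) and MSMO1 (262.6).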
